A study of Arabidopsis thaliana with 8 samples.

Results

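Among 691 genes that had an array row of their own, 6 were chosen by their array signal at the 2 ages, which was low or listed at 0 in 1-week-old Arabidopsis thaliana plants and higher in every sample of 4-week-old plants. They are AT2G26110, AT2G37750, AT4G38490, AT2G39670, AT4G31210 and AT4G12270. Each is named by exactly 1 row of the array, and 0 rows naming several genes include any of them. All 8 samples were total RNA of wild-type plants of ecotype Columbia-0, a standard laboratory accession of thale cress, with 4 samples at 1 week of age and 4 samples at 4 weeks of age. No transgene, mutation or treatment is named for either age. Which organs were harvested is not labelled, and nothing in the labels says that samples stem from different plants, so their spread may be technical.

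Because the age contrast chose these genes, their levels at the 2 ages are given as a description, without a test. Signals are array intensities in arbitrary units on a linear scale. Summed over the 3439 rows, a sample held between 3070 and 3374 units, and its share of rows at 0 was 11.3% to 13.6%. Transcripts may be present where a row is at 0: SBPASE, which encodes a Calvin cycle enzyme of green leaves, was at 0 in all 4 samples of 1-week-old plants and at most 0.0394 at 4 weeks. In whole-plant or organ RNA, fewer cells of a type and less RNA per cell cannot be told apart. Of the marker genes chosen to check what the samples held, 4 of 8 for green leaf had a row of their own, and none of the 4 for root, 4 for flower, 3 for senescence and 3 for seed. Of these leaf genes, PRK, PSAN and LHB1B2 had signal in all 8 samples and SBPASE was at or near 0. PRK had a mean of 0.954 ± 0.134 in the younger and 2.01 ± 0.175 in the older plants (SD, n = 4 each). PSAN had 2.78 ± 0.395 and 3.31 ± 0.368, while the deposited means of LHB1B2 went the other way, with 12.9 ± 2.85 and 6.68 ± 1.34. On the normalized log2 scale, PRK differed by 1.14 (SE 0.12, limma adjusted p = 0.000163) and PSAN by 0.39 (SE 0.13, limma adjusted p = 0.0389). Both passed the threshold of the test, which 45.7% of all tested rows passed in either direction. Their calls under other settings were not looked at. The difference of LHB1B2 was −0.46 (SE 0.23, limma adjusted p = 0.135) and did not pass the threshold. On the deposited scale, though, each of its 1-week signals (9.06 to 15.3) was above each 4-week signal (4.74 to 7.8). The part of tissue makeup in the levels of the 6 genes was not tested.

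For 3 of the 6 genes a protein family is known. AT4G31210 encodes a type IA DNA topoisomerase, an enzyme class that relieves twist in DNA by cutting a single strand and resealing it after passage of the other. AT2G39670 belongs to the radical SAM superfamily, whose enzymes use an iron-sulfur cluster to split S-adenosylmethionine and start radical reactions such as methylation of RNA or insertion of sulfur into cofactors. AT4G12270 belongs to the copper amine oxidases, which oxidise amines such as the polyamine putrescine and release hydrogen peroxide. AT2G26110 encodes a plant protein with a domain of unknown function. No role is given here for AT2G37750 and AT4G38490.

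The genes were separated between the ages to very different degrees. In 160 of the 692 rows that name 1 gene (23.1%), every 4-week sample lay above every 1-week sample, at any level of signal. Only 11 of these rows also had a 1-week sample at 0. The separation alone was thus common on this array, and nothing is read from the 6 genes sharing it. Of the 24 values of the 6 genes at 1 week, 6 were listed at 0, and 4 of these belong to AT4G12270. At 4 weeks 0 of the values of the 6 genes were listed at 0, which the choice of the genes fixed. Over the whole array, 99 rows had at least 1 sample at 0 at 1 week and none at 4 weeks, and 46 rows had the reverse.

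**Figure D1:**
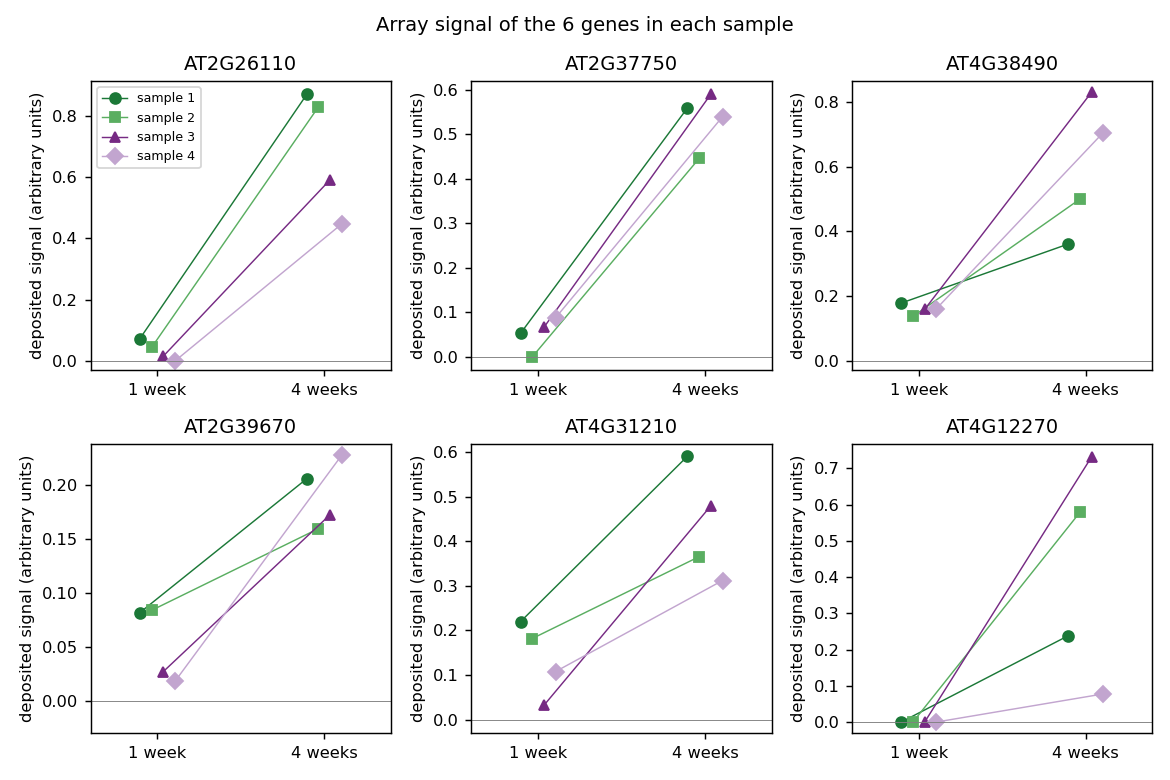
Deposited array signal (vertical axis, arbitrary units, a separate linear scale for each gene) of the 6 genes at 1 week and 4 weeks, with 1 point per sample and a line joining samples that carry the same number. All 4 samples of 4-week-old plants lie above all 4 samples of 1-week-old plants for each gene, by the choice of the genes. The 4-week samples of AT2G37750 lie close together, while those of AT4G12270 spread from 0.0775 to 0.731.

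AT4G31210, the topoisomerase gene, had signals of 0.220, 0.182, 0.0320 and 0.108 in samples 1 to 4 at 1 week and of 0.591, 0.365, 0.479 and 0.312 at 4 weeks. The ages came nearer to each other than for any of the other genes with a signal at 1 week: the lowest 4-week sample, number 4, was 1.42-fold the highest 1-week sample, number 1. The 1-week mean was 0.135 ± 0.0831 and the 4-week mean 0.437 ± 0.124 (SD, n = 4), which is a ratio of 3.23. On the normalized log2 scale the difference was 1.78 with a standard error of 0.51. As a ratio the spread was wider in the younger plants, where the highest sample was 6.86-fold the lowest, against 1.89-fold at 4 weeks, while the SD in signal units was larger in the older plants. Sample 3 of the 1-week-old plants was the low one, and without it the log2 difference was 1.25. None of the 17 other topoisomerase, gyrase and organelle DNA maintenance genes looked up was named by a row, alone or with other genes. As 1877 of the 3439 rows are unnamed here, this does not show that the array lacks them.

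AT2G39670, the radical SAM gene, had signals of 0.0816, 0.0836, 0.0268 and 0.0178 in samples 1 to 4 at 1 week and of 0.206, 0.159, 0.172 and 0.227 at 4 weeks. In the 1-week-old plants, samples 1 and 2 were both above samples 3 and 4, with means of 0.0826 and 0.0223, a ratio of 3.70. At 4 weeks the same pairs of samples overlapped, with means of 0.183 and 0.200. The ratio between same-numbered samples of the 2 ages thus ran from 1.91 in sample 2 to 12.8 in sample 4, although the 4-week signals were within 1.43-fold of each other. The overall means were 0.0524 ± 0.0350 and 0.191 ± 0.0311 (SD, n = 4), and the normalized log2 difference was 1.85 (SE 0.47). That value was 0.97 from samples 1 and 2 alone and 2.74 from samples 3 and 4 alone.

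Of 12 other radical SAM genes looked up, 2 were named by a row of their own. A row shared with other genes named 4, which may include those 2. THIC, for the radical SAM enzyme that makes the pyrimidine part of thiamine, had signals of 0.389, 0.497, 0.317 and 0.298 at 1 week and 0.326, 0.404, 0.478 and 0.520 at 4 weeks. The ages overlapped, and the log2 difference of 0.14 (SE 0.19) did not pass the threshold of 0.05 (limma adjusted p = 0.583, and from 0.254 to 0.889 over all settings). AT5G63290 was listed at 0 in all 8 samples. It was therefore not part of the fit, so THIC is the single radical SAM gene tested here on a row of its own.

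AT4G12270, of the copper amine oxidase family, was listed at 0 in all 4 samples of 1-week-old plants. At 4 weeks its signals were 0.238, 0.578, 0.731 and 0.0775 in samples 1 to 4. Samples 2 and 3 were high and sample 4 was low, and the highest was 9.43-fold the lowest, the widest spread of any of the 6 genes at 4 weeks. No fold can be given against an age at 0, and the gene was not part of the log2 fit. The mean of its 4-week signals was 0.406, and it ran from 0.298 without sample 3 to 0.516 without sample 4. Over the whole array, 2 rows were at 0 in all 1-week samples and above 0 in all 4-week samples, and 3 rows had the reverse.

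Of 14 other amine oxidase genes looked up, which include polyamine oxidases, the copper amine oxidase family gene AT2G42490 was the only one found among the named rows. Its signals were 0.190, 0.175, 0.210 and 0.185 at 1 week and 0.0693, 0.0648, 0.0943 and 0.131 at 4 weeks. Every 1-week sample was above every 4-week sample, which is opposite to AT4G12270. Its signal fell from 0.190 ± 0.0145 to 0.0900 ± 0.0305 (SD, n = 4). The log2 difference was −1.45, with a standard error of 0.25 and a limma adjusted p of 0.00202. Its row lay in the tercile of tested rows with the lowest mean signal, so it was absent where that tercile was left out. The call held under all 13 alternatives that tested it, with log2 differences from −1.68 to −0.82 and limma adjusted p from 0.000369 to 0.00989. For comparison, 45.7% of the tested rows passed this test in either direction, and 24.9% did with samples 1 and 2, and samples 3 and 4, of an age as a random block. On the chromosome, the next protein-coding genes after AT4G12270 are AT4G12280 and AT4G12290, both of the list of copper amine oxidases, and no named row includes either. Whether their transcripts contributed to the signal of AT4G12270 was not tested.

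AT2G26110 had signals of 0.0732, 0.0443, 0.0157 and 0 in samples 1 to 4 at 1 week and of 0.869, 0.829, 0.591 and 0.447 at 4 weeks. The lowest 4-week sample was 6.11-fold the highest 1-week sample, the widest such ratio among the 5 genes with a signal at 1 week. The normalized log2 difference was 3.96 (SE 0.49), with 1-week sample 4 left out because it was at 0. Samples 1 and 2 were above samples 3 and 4 at both ages, with means of 0.849 and 0.519 at 4 weeks, a ratio of 1.64. The log2 difference was 3.85 from samples 1 and 2 alone and 4.61 from samples 3 and 4 alone, where the younger age then had sample 3 only. On the deposited scale the order of these pairs was the other way round, with differences of 0.790 and 0.511.

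AT2G37750 had signals of 0.0530, 0, 0.0664 and 0.0879 at 1 week and of 0.559, 0.445, 0.590 and 0.539 at 4 weeks. It had the most even 4-week signal of the 6 genes, with the highest sample 1.32-fold the lowest. Sample 2 was the lowest at both ages. The lowest 4-week sample was 5.07-fold the highest 1-week sample, and the normalized log2 difference was 2.81 (SE 0.22), with the 1-week sample at 0 left out. The log2 difference was 3.24 from samples 1 and 2 alone, where the younger age then had sample 1 only, and 2.62 from samples 3 and 4 alone. On the deposited scale, with the 0 kept, the difference of the means was 0.476 in samples 1 and 2 and 0.487 in samples 3 and 4.

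AT4G38490 differed from the other 5 genes in having a steady signal in the younger plants. It gave 0.178, 0.137, 0.159 and 0.160 at 1 week and 0.361, 0.500, 0.832 and 0.707 at 4 weeks. The 1-week samples were within 1.30-fold of each other, and the 4-week samples within 2.30-fold, with samples 3 and 4 both above samples 1 and 2 (means of 0.769 and 0.431, a ratio of 1.79). The means of the ages were 0.159 ± 0.0169 and 0.600 ± 0.210 (SD, n = 4), a ratio of 3.79, and the normalized log2 difference was 1.74 (SE 0.25). The difference of the deposited means was 0.273 in samples 1 and 2 and 0.610 in samples 3 and 4.

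**Figure D2:**
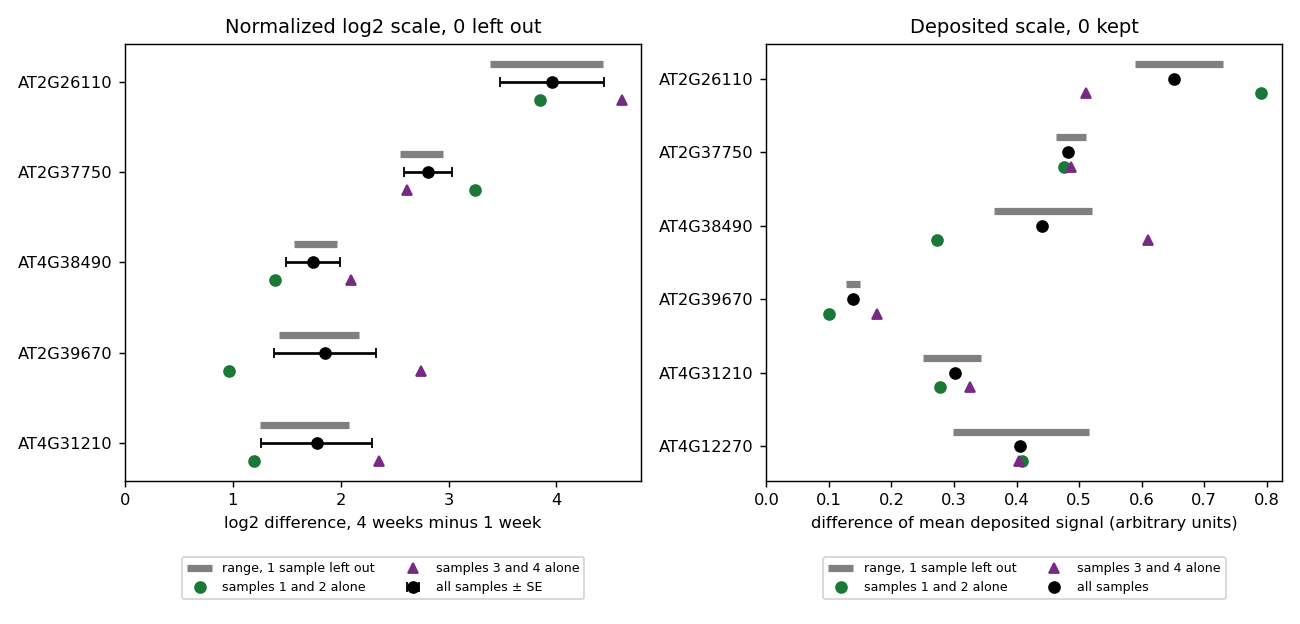
Left, difference between 4 weeks and 1 week on the quantile normalized log2 scale for the 5 genes that could be fitted, and right, difference of the mean deposited signals in arbitrary units for all 6 genes. Black points use all samples, with the standard error of the fit on the left, grey bars span the values with 1 sample left out, and coloured points use samples 1 and 2 or samples 3 and 4 of both ages. For AT2G39670 the coloured points lie at 0.97 and 2.74 on the log2 scale, farther apart than for the other genes. On the deposited scale they nearly coincide for AT2G37750 (0.476 and 0.487) and AT4G12270 (0.408 and 0.404). For AT4G12270 each pair averages a low and a high 4-week sample.

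Samples 1 and 2 and samples 3 and 4 resembled each other across the array, for a reason the labels do not give, and the 6 genes followed this division in different directions. At 1 week, samples 1 and 2 lay above samples 3 and 4 for AT2G26110, AT2G39670 and AT4G31210, and below them for AT2G37750, whose sample 2 was at 0. At 4 weeks the pairs of samples were separate only for AT2G26110, with samples 1 and 2 higher, and for AT4G38490, with samples 3 and 4 higher. Such separation was frequent in the tested rows as a whole. At 1 week samples 1 and 2 lay above samples 3 and 4 in 33.3% of rows and below in 35.3%, and at 4 weeks in 24.0% and 37.5%.

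The spread between samples of an age is given as a description, since the choice of genes with a low signal at 1 week and a higher one in every 4-week sample also bears on it. It was measured as the SD of the log2 signal over the samples above 0, beside the same SD for all tested rows with 4 measured samples. At 1 week the median over 2846 rows was 0.264 (quartiles 0.159 and 0.432), and in the tercile of tested rows with the lowest mean signal, called dim rows here, it was 0.368. AT4G31210 had 1.25, AT2G39670 1.13 and AT2G26110 1.13 over its 3 samples above 0, each larger than in at least 93.4% of the dim rows. Dim rows were ranked on the mean over both ages, so this does not compare rows of like signal at 1 week. AT4G38490 had 0.156, which was smaller than in most rows, and AT2G37750 had 0.366 over 3 samples. At 4 weeks the median over 2876 rows was 0.222, and 0.310 in the dim rows. There AT2G37750 (0.176) and AT2G39670 (0.234) were near the middle of all rows, AT4G31210 (0.409), AT2G26110 (0.450) and AT4G38490 (0.536) were above the upper quartile of 0.358, and AT4G12270 had 1.47, more than 98.6% of all rows. The rows of AT2G26110, AT2G37750, AT2G39670 and AT4G31210 were themselves among the dim rows, that of AT4G38490 was not, and AT4G12270 was not among the tested rows.

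**Figure D3:**
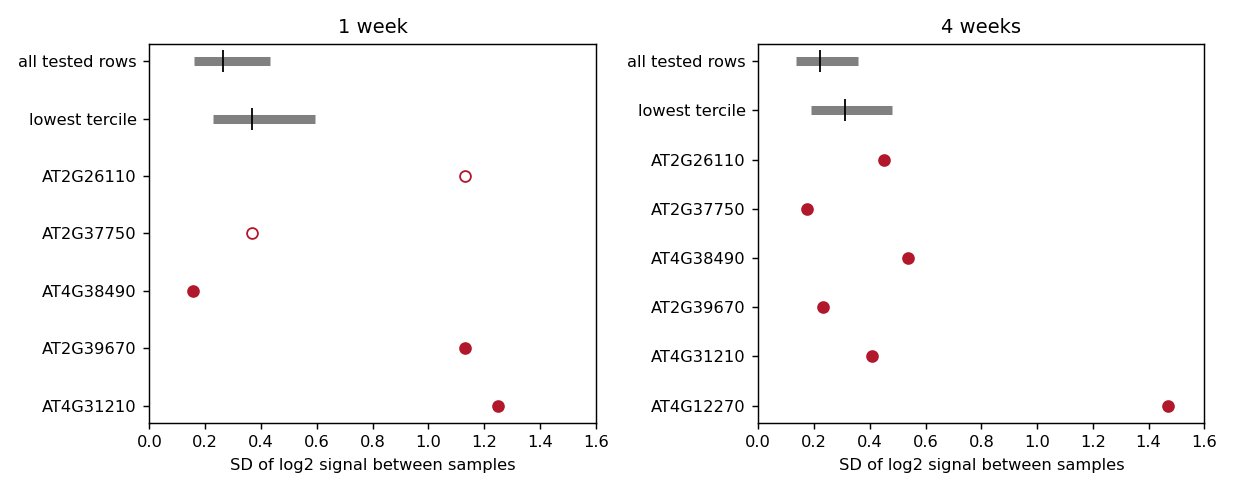
SD of the log2 signal between samples of an age (horizontal axis) for the 6 genes, with open circles where only 3 samples were above 0, at 1 week (left) and 4 weeks (right). Grey bars span the quartiles and black ticks mark the median over all tested rows with 4 measured samples and over those in the lowest tercile of mean signal. AT2G26110, AT2G39670 and AT4G31210 lie far right of the bars at 1 week and AT4G12270 at 4 weeks.

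The choice of the 6 genes left out others of the same pattern. Among the 156 single-gene rows in the fit that had every 4-week sample above every 1-week sample, AT2G26110 and AT2G37750 ranked 1 and 2 by log2 difference, and AT2G39670, AT4G31210 and AT4G38490 ranked 4, 5 and 6. Rank 3 was AT3G04210, a resistance-protein gene of the TIR class, with 1-week signals from 0.0750 to 0.175 and 4-week signals from 0.629 to 0.862. Just beyond the smallest of the 6 came CCL, with a log2 difference of 1.74 (SE 0.39), AT1G12800 with 1.72 (SE 0.14) and AT2G28790 with 1.70 (SE 0.49, without a 1-week sample at 0). The difference of AT4G38490 exceeds that of CCL by less than either standard error. Of 11 single-gene rows of the pattern with a 1-week sample at 0, 8 were of other genes. Among these, named after their values were seen, AT5G63390 was at 0 in 3 samples of 1-week-old plants and at 0.170 to 0.309 at 4 weeks, and AT4G02580 was at 0 in 2 samples and at 0.269 to 0.327 at 4 weeks.

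**Figure D4:**
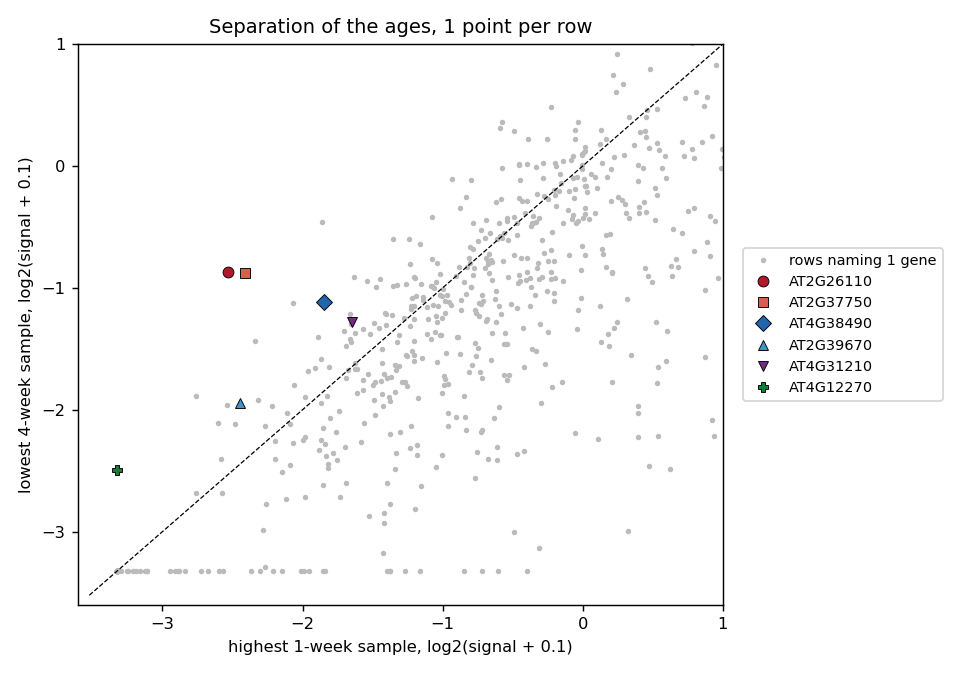
Highest 1-week sample (horizontal axis) against lowest 4-week sample (vertical axis), both as log2(signal + 0.1), for rows naming 1 gene, with the 6 genes marked. Points above the dashed line have every 4-week sample above every 1-week sample, 67 brighter rows with a value above 1 lie outside the frame, and the row of points at the bottom has a 4-week sample at 0. AT2G26110 and AT2G37750 lie far above the line, whereas AT4G31210 lies close to it.

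The likeness of profiles was measured as the root mean square difference over the 8 samples between log2(signal + 0.1) values, each gene centred on its own mean, against 647 other single-gene rows. This scale draws dim genes toward a flat profile. The nearest rows to AT2G26110 were AT2G37750 (0.542) and CCL (0.577), where the median over all rows was 1.29. For AT2G37750 they were AT3G04210 (0.268) and AT4G02580 (0.322; median 1.05). AT4G38490 was nearest to AT5G63390 (0.242) and AT2G27290 (0.256; median 0.732).

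AT2G39670 was nearest to AT5G25990 (0.144) and AT4G32340 (0.152; median 0.541). AT4G31210 was nearest to AT2G46630 (0.293) and AT4G13680 (0.294; median 0.744), both of which had their 1-week samples 1 and 2 above samples 3 and 4, as AT4G31210 did. The choice by likeness favours this shared order, which 33.3% of all tested rows had at 1 week. AT4G12270 had no close match, with AT2G26110 at 0.634 and AT3G04210 at 0.647 (median 1.21). Within the 6 genes, the nearest pair was AT2G39670 and AT4G31210 (0.350) and the most distant AT2G39670 and AT4G12270 (0.935).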

How the data were processed

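Total RNA of 4 samples per age was measured on arrays. The deposited table holds 1 intensity per row and sample on a linear scale, from 0 to 100. For the steps by which the authors scanned, corrected and scaled each intensity, nothing is given in the sources used here. Rows were named with GEO's platform annotation, updated through gene numbers with a RefSeq gene table: 692 rows name 1 gene, 870 several, and 1877 are unnamed here. That table has no gene descriptions, so planned lists based on descriptions were searched through gene synonyms where these existed and otherwise not drawn.

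After log2 transformation, with 0 treated as missing, the arrays were quantile normalized. Rows with 3 measured samples in each age were fitted with limma 3.58.1 (R 4.3.3; statmod 1.5.0 for the random block) as 4 weeks minus 1 week, without a block, with Benjamini-Hochberg adjustment over all 2924 tested rows and a threshold of 0.05. Of the remaining rows, 513 had too few measured samples and 2 lay at the highest value in all samples. The median log2 difference of the tested rows was 0.16. The genes were chosen on this contrast, so no p-value is given for them.

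The fit was tested on simulated data in which all samples varied independently. That test therefore does not cover the likeness of samples 1 and 2, and of samples 3 and 4, in the real data. Samples of the same number deviated together from the mean of their age (correlations of 0.425 to 0.527 over 2814 rows in the 4 pairs). Unlike numbers also correlated between the ages, at 0.18 and 0.229 within samples 1 and 2, and at 0.343 and 0.397 within samples 3 and 4. The likeness of same-numbered samples is thus partly that of these groups of samples. Pairing by number entered the fit only as the replicate block, an alternative. The labels do not say what a number marks. Genes named in the text were the 6, the 2 nearest profiles of each, the related genes with a row of their own and the neighbours in rank. Leaf marker genes with a row of their own and some chromosome neighbours of the 6 were named as well. The 6 genes and all lists were chosen with earlier results of these data known. Alternatives were other scalings, a pseudocount of 0.1, leaving out dim rows, blocks and leaving out samples.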

Additional observations from a re-analysis of the deposited data

How the results depend on the processing

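The count of rows that differed between the ages was 1337 of 2924, made up of 741 rows higher in the older plants and 596 lower. It was 1656 with the sample number as replicate block and ran from 1075 to 1279 with 1 sample left out. With samples 1 and 2, and samples 3 and 4, of an age as a random block it was 727, with 322 higher and 405 lower. The other scalings and filters kept it within 1.5 times. For the 6 genes, all 136 values under an alternative were above 0, a direction that the choice of the genes favours, and 125 moved by less than the spread between samples. The other 11 came from the pseudocount of 0.1, which draws dim values together (a log2 difference of 0.78 for AT2G39670 and 2.43 for AT2G26110), or from samples 1 and 2 or samples 3 and 4 alone. Leaving out 1 sample can hardly move a difference by the spread between samples, and the replicate block leaves it unchanged for fitted genes without a 0. The count of 125 therefore says little about stability. The replicate block did not change the calls of AT2G42490 and THIC. No background signal is given with the deposited values, so how far the dim signals lie above background is unknown.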

Other observations

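The protein-coding neighbours of the 6 genes, up to 2 on either side along the chromosome, gave 1 further row naming a single gene. It was that of AT2G26100, next to AT2G26110, with signals of 0.134, 0.110, 0.296 and 0.149 at 1 week and 0.0782, 0.107, 0.263 and 0.307 at 4 weeks. The ages overlapped for AT2G26100, and samples 1 and 2 were below samples 3 and 4 at both ages, which is the reverse of AT2G26110.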
